A study of Mus musculus with 12 samples.

Results

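Gene expression in KPC4, a mouse pancreatic cancer cell line, was compared after exposure to the medium of 2 kinds of stellate cell culture, using all 6 of the KPC4 libraries among the 12 libraries of the study. The other 6 libraries are of the stellate line PSC4 itself, after 24 h in Control-SU or Gem-SU (3 each), and enter only where the responses of the lines are set against each other. Donor KPC4 cells first received 10 µM gemcitabine, a nucleoside analogue used as chemotherapy, or vehicle for 6 h, were washed, and conditioned starvation medium for 14 h, which gave the media named Gem-SU and Control-SU. One of these was put on PSC4 cells for 6 h, and the cells were washed and left to condition fresh starvation medium for 18 h, which gave Gem-PSC-SU and Control-PSC-SU. Further KPC4 cells, to which the labels report no added drug, spent 24 h in one of the latter media before their RNA was taken. Each medium had 3 libraries, labelled as biological replicates, and each cell type is represented by 1 line, named in the labels without a genotype. The libraries are called control 1 to 3 and Gem 1 to 3 below, and a pair is the control and the Gem library with the same number. No medium with drug alone was analysed here, so gemcitabine carried along with the medium and factors released by the cells cannot be told apart.

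Stellate cells are the connective tissue cells of the pancreas that turn into fibroblasts around a tumour. They exchange cytokines, growth factors and metabolites with tumour cells, and tumour cells damaged by chemotherapy release signals that change what stellate cells secrete. Receptors for such signals act through NF-kB, interferon and MAP kinase pathways. These pathways switch on immediate early transcription factors within minutes to hours, and then chemokines and growth factors. Signals of this kind can also affect whether a tumour cell divides, which was not measured here.

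The KPC4 table held 15309 genes, of which 13236 passed the low-count filter, and 7709 of those averaged at least 20 CPM (counts scaled to the size of the library) over the 6 libraries and are called well expressed. Library totals lay between 26354328 and 34744150 counts. The lowest chi-square per degree of freedom between replicates of a group was 30.4, far above counting noise. On the main axis of variation, which took 50.05% of the variance, Gem 2 lay farthest out and control 2 lay on the Gem side of Gem 1, so that this axis did not order the libraries by group. Between 2.33% and 3.90% of counts came from 13 mitochondrially encoded genes, with overlapping groups. The 14 epithelial markers analysed summed to between 6957 and 8459 CPM in control libraries and between 6445 and 8400 CPM in Gem libraries. The epithelial keratins Krt8, Krt18 and Krt19 were high, averaging 2855, 1401 and 1829 CPM in controls. The epithelial adhesion gene Epcam was low (8.96 CPM ± 5.74 in controls, SD, n = 3). Cldn7, Ocln and Cldn4, genes of tight junctions, were also low in controls, at 9.77, 2.11 and 1.28 CPM. The mesenchymal gene Vim averaged 2588 CPM in controls. Of 15 stellate markers 8 were analysed in KPC4, summing to at most 38.7 CPM in any KPC4 library, whereas 14 summed to at least 2150 CPM in every PSC4 library, and Dcn, Pdgfrb and Thy1 were not analysed here for KPC4.

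The medium of stellate cells exposed to Gem-SU changed 1171 of the 13236 genes tested, 803 higher and 368 lower (8.85% of genes in all, 6.07% higher and 2.78% lower; edgeR quasi-likelihood test with the replicate number as a block, Benjamini-Hochberg adjusted p under 0.05). Genes of cell division and DNA replication, chemokines, EGF receptor ligands and immediate early transcription factors were among those that rose, and glycolytic enzymes and ribosomal proteins among those that fell. At least 2-fold changes numbered 542, of which 478 were higher and 64 lower. Among well expressed genes 884 of 7709 passed (11.5%), 611 higher and 273 lower, and 321 of the former but 21 of the latter changed at least 2-fold. Of the 611, 139 averaged under 20 CPM in controls and so counted as well expressed only through their Gem libraries, as did 111 of the 321. In bulk RNA, fewer cells of a kind and less RNA per cell cannot be told apart.

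These calls rest on the replicate block. Without it the same test called 0 genes, with 2251 at an unadjusted p under 0.05 against 3981 with the block, and a smallest adjusted p of 0.0863, while DESeq2 without the block called 822. All 1171 genes kept their direction in the fit without the block. As each moved the same way in all 3 pairs of the same libraries, that outcome was nearly fixed in advance. Of the 1171, 629 were among the DESeq2 calls without the block. The number of calls with the block also moved with single pairs: without pair 1 the test called 3051 genes, without pair 2 1305, and without pair 3 45, all of the last being higher.

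**Figure D1:**
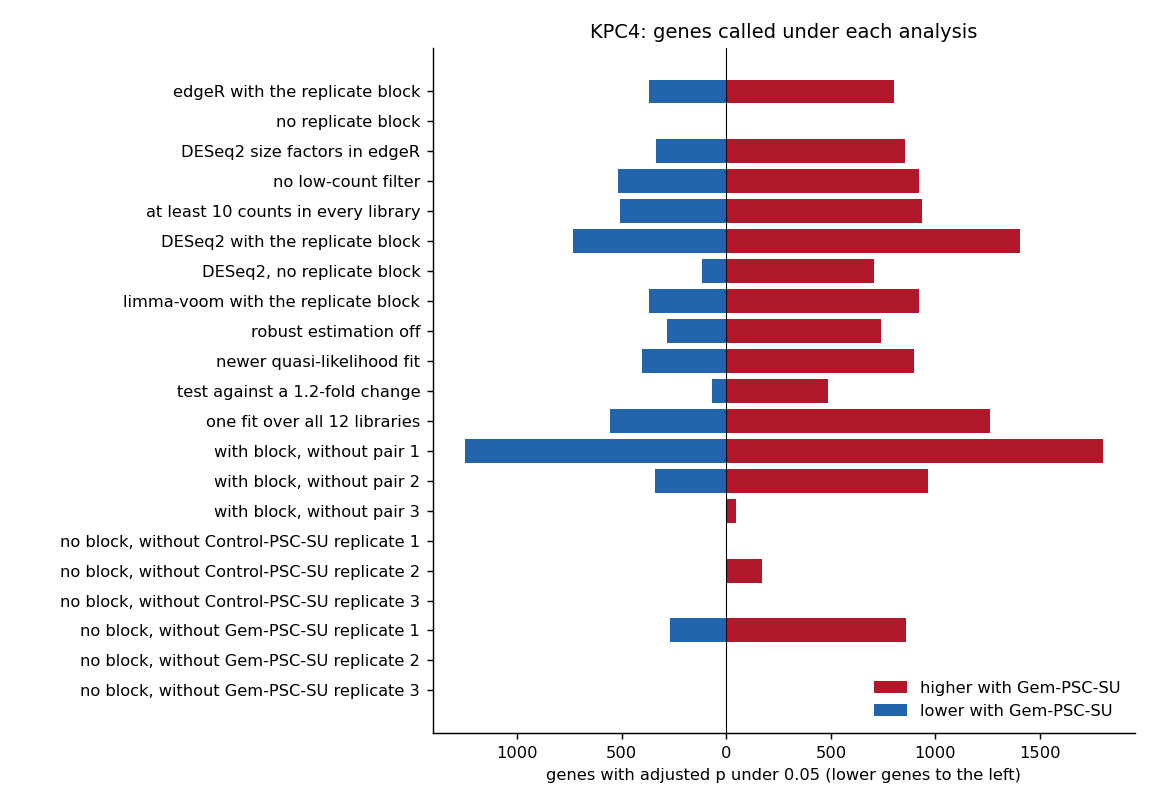
Genes with an adjusted p under 0.05 under each analysis of the 6 KPC4 libraries, with genes higher in Gem-PSC-SU drawn to the right and genes lower drawn to the left of 0. The first bar shows 803 higher and 368 lower genes, the second, without the replicate block, shows 0, and the fit without pair 3 shows 45.

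The 3 pairs did not respond by the same amount. Over the genes tested, 782 were at least 2-fold higher and 382 at least 2-fold lower in pair 1, against 1553 and 819 in pair 2 and 1081 and 530 in pair 3. With a single library per medium in each pair, these differences between pairs have no replicate and were not tested. A gene had the same direction in all 3 pairs in 7021 cases, or 53.04%, of which 3297 were higher (24.9% of genes) and 3724 lower (28.1%), and 323 genes were at least 2-fold higher in every pair against 17 lower. Across genes, which are not independent replicates, the log2 ratios of pair 1 correlated with those of pair 2 at r = 0.33 and with those of pair 3 at 0.44, and pairs 2 and 3 correlated at 0.58. Over well expressed genes the values were 0.50, 0.66 and 0.83.

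All 1171 called genes moved one way in all 3 pairs. The test used these same pairs, so that outcome was likely in advance, and the medians below are of genes it selected. For the 803 that rose, the median log2 ratio was 0.87 in pair 1, 1.2 in pair 2 and 1.23 in pair 3, and pair 1 had the smallest ratio for 475 genes. For the 368 that fell, the medians were -0.60, -0.86 and -0.74, with pair 1 the smallest in size for 217. The control and Gem libraries did not overlap for 589 of the 803 and 248 of the 368, and over all genes tested 11.8% had Gem libraries wholly above and 10.9% wholly below the controls. For the remaining genes at least 1 library of one group lay inside the range of the other, and the call came from the comparison within pairs.

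**Figure D2:**
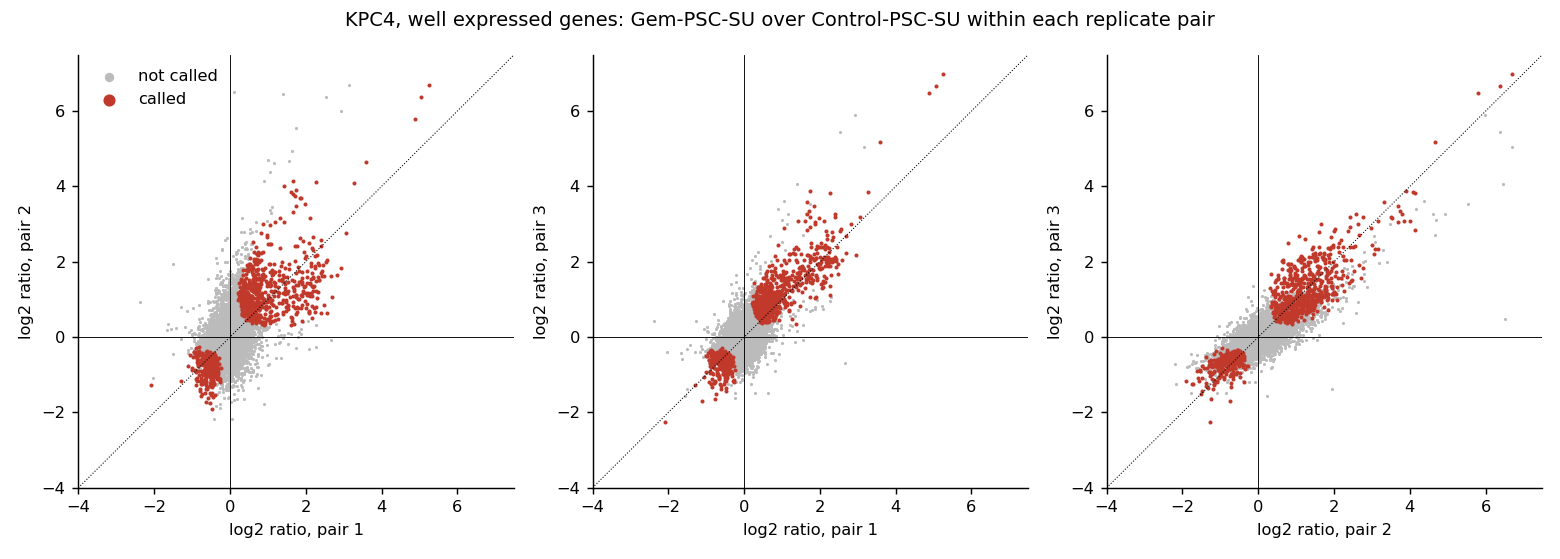
Log2 ratio of Gem-PSC-SU over Control-PSC-SU for each of the 7709 well expressed genes, one pair against another, with called genes in red and the dotted line marking equal ratios. Called genes lie in the corners where both pairs have the same sign, which a test on these pairs made likely in advance. The cloud is narrowest for pairs 2 and 3 (r = 0.83) and widest for pairs 1 and 2 (r = 0.50).

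By the mean over the 6 libraries, the largest increase among well expressed genes was that of Csf2 (ENSMUSG00000018916), which encodes GM-CSF, a growth factor for myeloid cells. Csf2 was low in controls and, as one of 9 among the 12 largest increases, reached the mean of 20 CPM only through the Gem libraries. It measured 0.115, 1.07 and 0.234 CPM in controls 1 to 3 and 5.91, 93.9 and 30.3 CPM in Gem 1 to 3, a log2 fold change of 6.49 (SE 0.27, edgeR adjusted p = 1.99e-04). The groups did not overlap, Gem 1 was the lowest Gem library, and control 1 held 4 reads, so the ratio in pair 1 has a wide counting error. Ptgs2 (ENSMUSG00000032487), the inducible cyclooxygenase that makes prostaglandin precursors, measured 47.6, 178 and 73.9 CPM in controls and 463, 3029 and 1064 CPM in Gem libraries. It rose by 3.74 on the log2 scale (SE 0.18, edgeR adjusted p = 2.35e-04), by 3.28, 4.09 and 3.85 in pairs 1 to 3, and in both groups the second library was the highest. Its control and Gem libraries did not overlap.

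**Figure D3:**
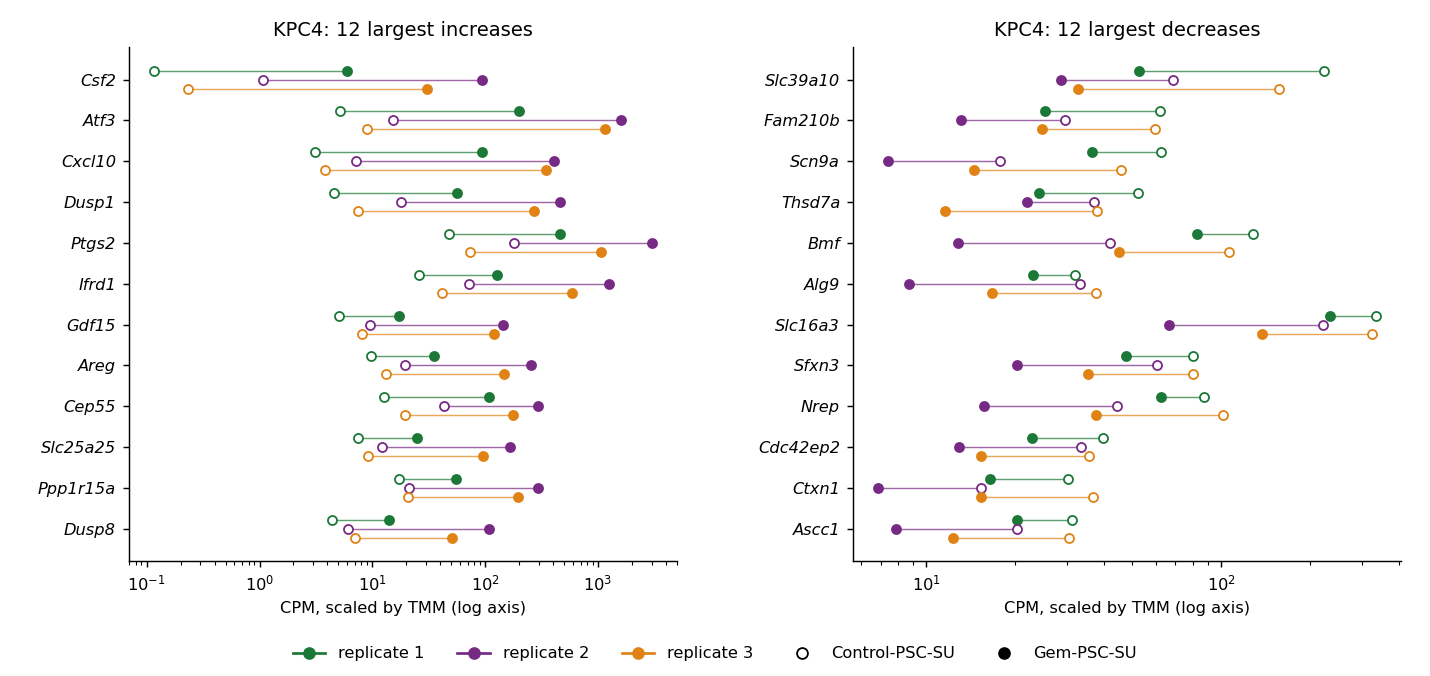
CPM in each library on a log axis for the 12 largest increases and the 12 largest decreases among well expressed called genes, with open circles for Control-PSC-SU, filled circles for Gem-PSC-SU, and a line joining each pair. Every line points the same way within a gene because the genes were chosen for the same direction in all pairs. Csf2, Atf3 and Cxcl10 show the longest lines on the left.

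Chemokines, the secreted proteins that guide leukocytes, had 3 called members of 13 tested, all higher, with a median log2 fold change of 1.80 against -0.03 over all genes tested. The list stood at a median of 0.89 in pair 1, 5.05 in pair 2 and 1.98 in pair 3, and 9 members were higher in every pair. Cxcl10 (ENSMUSG00000034855), an interferon-inducible attractant of T cells, measured 3.11, 7.23 and 3.82 CPM in controls and 93.7, 404 and 349 CPM in Gem libraries. It rose by 5.75 on the log2 scale (SE 0.33, edgeR adjusted p = 7.55e-04), and the lowest Gem library was far above the highest control. Cxcl2 (ENSMUSG00000058427) and Cxcl3 (ENSMUSG00000029379), neutrophil attractants, were nearly silent in controls, at no more than 0.445 and 0.563 CPM. They reached 4.67, 44.5 and 36.0 CPM and 6.80, 41.0 and 26.0 CPM in Gem 1 to 3, and rose by 6.35 (SE 0.51, edgeR adjusted p = 0.00139) and 5.42 (SE 0.56, edgeR adjusted p = 0.00518). The related Cxcl1 was higher in each pair (2.93, 5.99 and 5.91 on the log2 scale) with an adjusted p of 0.056 in edgeR. Cxcl1, Cxcl2 and Cxcl3 are similar in sequence, and the way reads shared between them were counted is not given in the sources used here.

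Because these 3 chemokines moved together, their promoters are shown, from 250 bases before to 50 bases after the annotated start, 5′ to 3′ on the gene's strand. Capitals mark matches to the kappa-B site of NF-kB, the interferon element GAAANNGAA and the AP-1 element TGANTCA, searched on both strands. The windows are those of RefSeq on GRCm38.p6, at chr5:92348840-92349139 (minus strand) for Cxcl10, chr5:90903649-90903948 (plus strand) for Cxcl2 and chr5:90785851-90786150 (plus strand) for Cxcl3, while the submitters' processing notes name GRCm39.
Cxcl10: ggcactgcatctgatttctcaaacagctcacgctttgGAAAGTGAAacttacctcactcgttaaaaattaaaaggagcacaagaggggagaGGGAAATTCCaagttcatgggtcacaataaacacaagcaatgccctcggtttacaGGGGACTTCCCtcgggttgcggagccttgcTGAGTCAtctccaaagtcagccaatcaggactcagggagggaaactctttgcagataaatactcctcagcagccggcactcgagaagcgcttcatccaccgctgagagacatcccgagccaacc
Cxcl2: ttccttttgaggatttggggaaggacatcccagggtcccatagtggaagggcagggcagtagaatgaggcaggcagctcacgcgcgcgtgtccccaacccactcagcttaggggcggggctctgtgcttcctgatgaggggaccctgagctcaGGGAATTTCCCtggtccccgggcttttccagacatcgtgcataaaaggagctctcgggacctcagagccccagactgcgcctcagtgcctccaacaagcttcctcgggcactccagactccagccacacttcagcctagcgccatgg
Cxcl3: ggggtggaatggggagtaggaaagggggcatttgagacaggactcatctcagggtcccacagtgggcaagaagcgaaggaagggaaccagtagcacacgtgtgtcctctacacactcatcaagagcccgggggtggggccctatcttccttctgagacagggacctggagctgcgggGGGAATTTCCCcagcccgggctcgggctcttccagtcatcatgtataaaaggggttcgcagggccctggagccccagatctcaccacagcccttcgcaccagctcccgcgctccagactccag
Each of the 3 windows held a kappa-B match, which 8.46% of the 32851 RefSeq promoter windows of that length hold. In Cxcl10 a match began 159 bases before the start and a pair of overlapping ones 104 and 103 bases before it. In Cxcl2 the overlapping matches began 97 and 96 bases before the start, and in Cxcl3 73 and 72 bases before it. Only the Cxcl10 window among the 3 also held the interferon element (8.56% of all windows) and the AP-1 element (7.81%), 213 and 74 bases before the start. A match describes the letters and is not evidence of binding.

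Of 10 cytokines and prostaglandin enzymes tested, 5 rose and 0 fell, with a median of 2.08. Besides Csf2 and Ptgs2 these were Il33, an alarmin of the interleukin 1 family, Lif, a cytokine of the interleukin 6 family, and Tnf. Il33 measured 18.1, 30.6 and 12.02 CPM in controls and 41.4, 102 and 55.6 CPM in Gem libraries, and rose by 1.71 (SE 0.21, edgeR adjusted p = 0.00397) without overlap. Tnf was listed at 0 in controls 1 and 2 and at 0.167 CPM in control 3, against 0.321, 7.97 and 2.15 CPM in Gem 1 to 3, so its ratio is poorly determined. Csf1, the macrophage growth factor, measured between 57.7 and 548 CPM in Gem libraries against at most 31.0 CPM in controls, but its pairs differed so widely (0.90, 4.16 and 3.39 on the log2 scale) that it did not pass (edgeR adjusted p = 0.158).

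Ligands of the EGF receptor family bind receptors that drive growth. Of 9 genes of the family tested 4 passed, all ligands and all higher, and none of the receptors Egfr, Erbb2 and Erbb3 passed. Areg (ENSMUSG00000029378), amphiregulin, measured 9.80, 19.6 and 13.2 CPM in controls and 35.4, 252 and 147 CPM in Gem libraries, a log2 change of 3.03 (SE 0.40, edgeR adjusted p = 0.0163). Epiregulin, Ereg, measured 10.7, 32.8 and 14.3 CPM in controls and 49.4, 208 and 94.2 CPM in Gem libraries, and rose by 2.53 (SE 0.16, edgeR adjusted p = 5.29e-04). Its 3 pairs stood at 2.20, 2.66 and 2.71, close together beside the spread of Areg from 1.85 to 3.68. Hbegf rose by 1.74 (SE 0.28, edgeR adjusted p = 0.0183) and Btc, betacellulin, by 0.87 (SE 0.20, edgeR adjusted p = 0.0377). The ligand Tgfa was lower in each pair, between -0.11 and -0.77 on the log2 scale, and did not pass.

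Genes of the NF-kB pathway itself leaned upward in every pair, while few passed. Of 16 subunits and feedback inhibitors 3 rose, 0 fell and 15 were higher in all 3 pairs, with a median of 1.08 that stood at 0.34, 1.72 and 1.22 in pairs 1 to 3. Nfkbia, the inhibitor that NF-kB induces against itself, measured 29.5, 21.5 and 26.3 CPM in controls and 45.9, 91.1 and 65.9 CPM in Gem libraries, and rose by 1.35 (SE 0.27, edgeR adjusted p = 0.0292). Tnfaip2, a TNF-induced gene, rose by 0.76 and Zc3h12a, an RNase that limits cytokine transcripts, by 0.91. Tnfaip3 and Traf1, feedback regulators, had the largest changes of the list at 3.08 and 4.11 but ranged over the pairs from 1.07 to 4.38 and from 1.41 to 5.48, and did not pass. Without pair 1, 14 of the 16 passed, and without pair 3, 0 did.

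Interferon-stimulated genes were divided by pair. Of 20 tested 5 rose and 0 fell, and the list's median was 0.03 in pair 1 against 1.06 in pair 2 and 0.90 in pair 3, with 10 genes higher in every pair. Rsad2 (viperin), an antiviral enzyme, measured 0.951, 3.56 and 1.44 CPM in controls and 4.59, 55.8 and 28.0 CPM in Gem libraries, and rose by 3.60 (SE 0.40, edgeR adjusted p = 0.00397). Oas2, a synthetase that activates RNase L, rose by nearly the same amount in each pair (1.55, 1.54 and 1.58; SE of the fit 0.18, edgeR adjusted p = 0.00293). Oasl1 and Cmpk2 rose by 1.54 and 1.37, and Stat2, a subunit of the interferon-activated transcription factor, by 0.78. Isg15, Ifit1 and Ifit3 were lower in pair 1 (-0.41, -0.28 and -0.35) and higher in pairs 2 and 3, and did not pass. Without pair 1, 17 of the 20 rose, and without pair 3, 0 did. Oas and Oasl genes are families of similar copies, and their counts may share reads.

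Among 18 innate receptors and adaptors 1 rose, against 6.07% of all genes tested: Cgas, the cytosolic DNA sensor, by 1.09 (SE 0.21, edgeR adjusted p = 0.0252), at 2.54, 7.26 and 4.09 CPM in controls and 4.99, 14.2 and 10.3 CPM in Gem libraries, where control 2 lay above Gem 1. Of 11 genes of MHC class I presentation 2 rose and 0 fell. H2-K1 and H2-D1, heavy chains that are similar in sequence, rose by 0.70 and 0.57 (edgeR adjusted p = 0.0436 and 0.0426). B2m, their light chain, stood at -0.04 and did not pass. For H2-K1, control 3 lay above Gem 1 (216.6 against 200.9 CPM). The calls of H2-K1 and H2-D1 were lost without pair 3 and against a 1.2-fold change. The authors' deposited DESeq2 table gives them adjusted p of 0.0865 and 0.19. Of 8 checkpoint and NK cell ligands 2 rose: Ulbp1, a ligand of the activating receptor NKG2D, by 1.10 (SE 0.14, edgeR adjusted p = 0.00519), and Pvr, a ligand shared by activating and inhibitory receptors, by 1.56 (SE 0.28, edgeR adjusted p = 0.0279). Ulbp1 measured 28.3, 31.5 and 27.5 CPM in controls and 60.2, 74.1 and 53.9 CPM in Gem libraries, tight groups that did not overlap. Cd274, which encodes PD-L1, stood at 0.22 and did not pass.

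Immediate early transcription factors, which relay growth factor and stress signals, leaned upward like the chemokines. Of 20 tested 8 rose and 0 fell, 17 were higher in all 3 pairs, and the median was 1.75, with 1.00, 2.73 and 1.84 in pairs 1 to 3. Atf3 (ENSMUSG00000026628), a stress-induced factor of the ATF family, measured 5.16, 15.2 and 9.04 CPM in controls and 198, 1591 and 1161 CPM in Gem libraries, and rose by 6.35 (SE 0.43, edgeR adjusted p = 0.00212). Egr2, a zinc finger factor induced by growth factors, was at no more than 0.652 CPM in controls and reached 5.16, 80.5 and 29.1 CPM, a rise of 5.94 (SE 0.49, edgeR adjusted p = 0.00143). Both were without overlap and lowest in Gem 1. Klf4 differed from these by its even response: it measured 36.6, 24.4 and 24.2 CPM in controls and 100.4, 86.3 and 79.6 CPM in Gem libraries, with Gem 1 the highest, and rose by 1.67 (SE 0.15, edgeR adjusted p = 0.00106). Fosl2, Fosl1, Egr3, Nr4a1 and Klf6 also rose, by 1.21 to 3.07.

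Fos, Egr1 and Jun, which open this response in most cells, were higher in each pair and did not pass. Egr1 measured 30.9, 34.4 and 41.2 CPM in controls and 275, 3548 and 1378 CPM in Gem libraries, a log2 change of 4.98 (SE 1.01, edgeR adjusted p = 0.0921), and Fos 4.88 (SE 1.13, edgeR adjusted p = 0.109). Their groups lay far apart, and the pairs varied more than those of the called genes, from 3.15 to 6.69 for Egr1. Nr4a2 was the list's exception, lower in every pair, between -0.22 and -1.19, and not called.

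The Atf3 promoter window (RefSeq, GRCm38.p6, chr1:191183284-191183583, minus strand, 250 bases before to 50 after the start) is shown because this gene responded most among the transcription factors. Capitals mark a match to the amino acid response element TGATGNAA, the letters through which ATF4 family factors act, here on the opposite strand and 110 bases before the start.
Atf3: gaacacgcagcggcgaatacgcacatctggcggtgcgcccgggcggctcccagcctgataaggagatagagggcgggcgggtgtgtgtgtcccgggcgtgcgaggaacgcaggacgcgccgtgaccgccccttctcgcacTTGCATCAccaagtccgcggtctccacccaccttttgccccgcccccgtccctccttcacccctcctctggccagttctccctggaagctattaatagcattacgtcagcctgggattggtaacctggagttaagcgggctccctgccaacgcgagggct
That element occurred in 3.97% of the promoter windows. Atf4 itself, the factor of the integrated stress response, rose by 1.11 (SE 0.17, edgeR adjusted p = 0.00991). It measured 89.8, 194 and 159.5 CPM in controls and 150.8, 564 and 329 CPM in Gem libraries. Controls 2 and 3 thus lay above Gem 1. The call was lost without pair 3, and the authors' deposited DESeq2 table gives an adjusted p of 0.149. Whether Atf4 acts on Atf3 here was not tested.

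Of 14 feedback genes of MAP kinase signalling 3 rose and 0 fell: Dusp1, Dusp5 and Dusp8, phosphatases that switch these kinases off. Dusp1 (ENSMUSG00000024190) measured 4.61, 18.0 and 7.43 CPM in controls and 56.1, 458 and 269.6 CPM in Gem libraries, without overlap, and rose by 4.5 (SE 0.32, edgeR adjusted p = 0.0011). Dusp8, which acts on stress-activated kinases, rose by 2.92 but with pair values from 1.66 to 4.14, the second widest range of any well expressed called gene. The widest was that of Gadd45g, a stress sensor gene, with 1.43, 4.01 and 3.08 in pairs 1 to 3, and the third was Ddit3. For all 3, pair 1 was the smallest and pair 2 the largest. Dusp6 and Dusp4, the feedback phosphatases of ERK, were higher in each pair, by at most 0.73, and did not pass, and the Sprouty genes Spry1, Spry2 and Spry4 did not pass.

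Genes of mitosis rose as a group. Of 22 tested 17 rose and 0 fell, 21 were higher in all 3 pairs, and the median was 1.64. Here pair 1 showed the largest response, with medians of 2.09, 1.10 and 1.66 in pairs 1 to 3, unlike the chemokines and early factors. Mki67 (the Ki-67 antigen of dividing cells) measured 191, 512 and 189 CPM in controls and 842, 1893 and 950 CPM in Gem libraries, without overlap, and rose by 2.12 (SE 0.14, edgeR adjusted p = 5.29e-04). Aurka, a spindle pole kinase, rose by 2.34 and Cenpe, a kinetochore motor, by 2.20. Cep55 (ENSMUSG00000024989), which recruits the machinery that separates daughter cells, measured 12.7, 43.3 and 19.3 CPM in controls and 107, 297 and 175 CPM in Gem libraries and rose by 3.01 (SE 0.15, edgeR adjusted p = 2.35e-04). In both groups the second library was the highest for Mki67 and Cep55, and control 2 was the control nearest to the Gem libraries.

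The genes that did not pass were Cenpf, Aurkb, Cdk1, Prc1 and Top2a. Top2a, the topoisomerase of chromosome condensation, measured 173, 563 and 221 CPM in controls and 843, 469.6 and 460.1 CPM in Gem libraries. It was thus higher in pairs 1 and 3 and lower in pair 2. The summed level of the mitosis list ran from 1138 to 3240 CPM in controls and from 4839 to 7629 CPM in Gem libraries. Without pair 2 all 22 rose, without pair 1 19 did, and without pair 3 4 did.

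The Mki67 promoter window (RefSeq, GRCm38.p6, chr7:135716330-135716629, minus strand) is shown for the cell cycle group. Capitals mark the cell cycle element CHR, TTTGAA, which 17.9% of promoter windows hold.
Mki67: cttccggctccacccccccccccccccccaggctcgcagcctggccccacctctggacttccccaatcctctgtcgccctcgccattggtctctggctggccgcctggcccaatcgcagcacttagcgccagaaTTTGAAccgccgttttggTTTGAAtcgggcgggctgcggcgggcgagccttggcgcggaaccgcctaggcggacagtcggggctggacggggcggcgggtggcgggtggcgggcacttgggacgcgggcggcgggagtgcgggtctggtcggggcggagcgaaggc
Its 2 CHR matches began 116 and 98 bases before the start, and the window also held 3 CCAAT boxes (37.4% of windows hold at least 1, on either strand), which are not in capitals.

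DNA replication genes rose with the mitotic ones, 19 of 21 tested, with 0 lower, 20 higher in all 3 pairs and a median of 1.17 (1.06, 1.08 and 1.51 by pair). Among these replication genes, Mcm10, Mcm3 and Cdt1 rose by 2.46, 1.81 and 1.58. Mcm10 measured 10.5, 46.7 and 14.5 CPM in controls and 61.5, 188 and 103 CPM in Gem libraries, without overlap and with control 2 the nearest of the controls (log2 SE 0.19, edgeR adjusted p = 7.61e-04). Ccnd1, the cyclin of early G1, stood at 0.05 with pair 2 lower, and E2f1 at 0.65, and neither passed. Of 14 DNA repair and checkpoint genes 10 rose and 0 fell, with a median of 1.44. Brca1, which acts in homologous recombination, rose by an even 1.54, 1.46 and 1.43 in the 3 pairs (SE of the fit 0.13, edgeR adjusted p = 9.27e-04). Brca2, of the same repair pathway, rose by 1.5. The kinase genes Atr, Atm, Chek2 and Wee1 did not pass, with fitted changes between -0.29 and 0.13, while Chek1 rose by 1.40.

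Of 12 genes of gemcitabine uptake, activation and targets 3 rose and 0 fell, and the list's median was -0.09. Rrm1 and Rrm2, the subunits of ribonucleotide reductase that the drug inhibits, rose by 1.17 (SE 0.13, edgeR adjusted p = 0.00329) and 1.71 (SE 0.20, edgeR adjusted p = 0.00366), and both are also members of the replication list. Rrm2 measured 21.6, 116 and 32.0 CPM in controls and 80.2, 252 and 138 CPM in Gem libraries, where control 2 lay above Gem 1. The calls of Rrm1 and Rrm2 were lost without pair 3. The authors' deposited DESeq2 table gives an adjusted p of 0.0421 for Rrm1 and 0.38 for Rrm2. Dck, the kinase that activates the drug, rose by 0.66 (SE 0.16, edgeR adjusted p = 0.0485), with control 2 again above Gem 1 and Gem 3. Dck was called in 7 of 20 alternatives, and with the block it missed the threshold in limma-voom (adjusted p = 0.0515), with robust estimation off (edgeR adjusted p = 0.0544), against a 1.2-fold change and without pair 1 or pair 3. The transporter gene Slc29a1 stood at 0.14 and the deaminase gene Cda at -0.62, and neither passed.

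**Figure D4:**
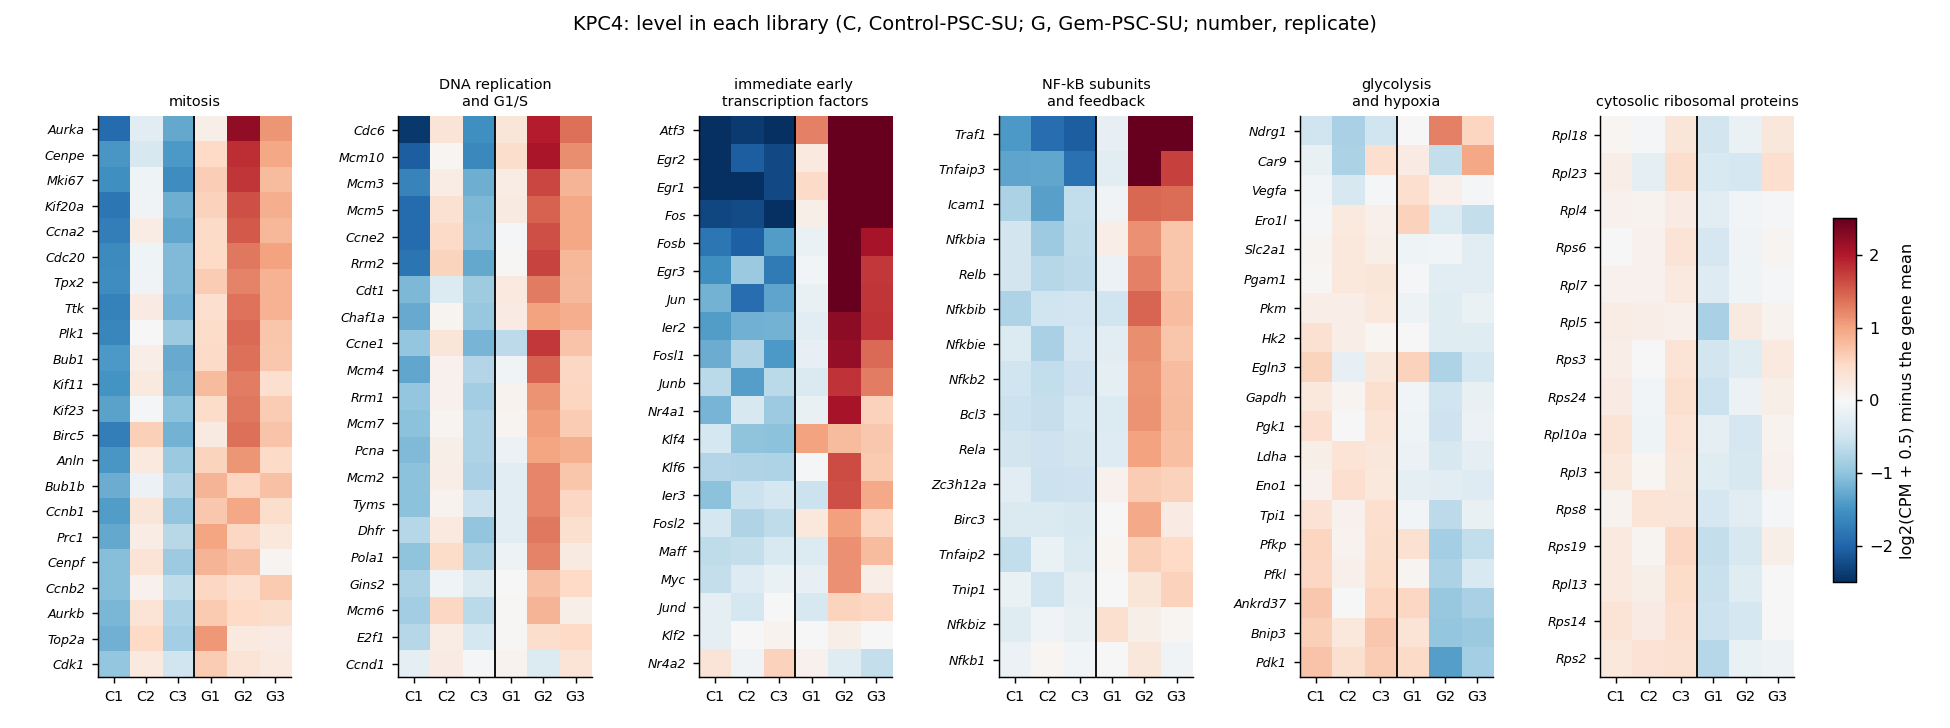
Level of tested genes of 6 lists in each library, as log2(CPM + 0.5) minus the gene's mean, with controls (C1 to C3) left and Gem libraries (G1 to G3) right of the line in each panel. The strongest colours also stand for all larger deviations. Most cell cycle genes are lowest in C1 and C3 with C2 above them, most early factors and NF-kB genes are highest in G2 and G3, and most ribosomal protein genes are lowest in G1.

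Stress genes changed in part. Of 18 genes of the p53 pathway 7 rose and 0 fell, with a median of 0.78 (0.46, 1.19 and 0.77 by pair). Mdm2, which directs p53 to degradation, rose by 1.12 (SE 0.21, edgeR adjusted p = 0.0212) and Btg2, an antiproliferative target, by 2.29 (SE 0.35, edgeR adjusted p = 0.0222). Gdf15 (ENSMUSG00000038508), a secreted stress cytokine of the TGF-beta family, measured 5.04, 9.52 and 8.07 CPM in controls and 17.1, 144 and 119.7 CPM in Gem libraries, and rose by 3.24 (SE 0.51, edgeR adjusted p = 0.0304). Cdkn1a, the p21 cell cycle inhibitor, was higher in each pair (0.57, 2.33 and 0.95) and did not pass (edgeR adjusted p = 0.0691), and Ccng1, Bax, Zmat3 and Phlda3 were lower in each pair without passing. In the Bcl2 family, where members either block or promote apoptosis, the promoting genes Pmaip1 and Bcl2l11 rose by 2.15 and 0.86 and the promoting gene Bmf fell by 1.19. The other 9 of 12 did not pass, among them the protective Bcl2l1 at -0.49 and Mcl1 at -0.01.

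The integrated stress response had 5 of 18 genes up and 0 down, with a median of 0.31. Ppp1r15a (ENSMUSG00000040435), which ends the response by restoring translation, measured 17.3, 21.2 and 20.6 CPM in controls and 55.2, 294 and 197 CPM in Gem libraries, and rose by 2.93 (SE 0.46, edgeR adjusted p = 0.0298). Ddit3, the factor CHOP, rose by 2.88, Sesn2 by 0.76 and the amino acid transporter subunit Slc3a2 by 0.76. The amino acid synthesis genes Asns, Phgdh and Psat1 did not pass, at -0.02, 0.00 and -0.11. Of 14 genes of the unfolded protein response of the ER 2 rose and 1 fell, against 6.07% and 2.78% of all genes tested. Hspa5, the main chaperone of this response, and Herpud1 rose by 1.05 and 0.72. Xbp1, a transcription factor of the response, fell by 0.79 (SE 0.15, edgeR adjusted p = 0.0214). Control 2 lay above Gem 1 for Hspa5, and Gem 1 above control 2 for Xbp1. Each of these calls was lost without pair 3. The authors' deposited DESeq2 table gives Hspa5, Herpud1 and Xbp1 adjusted p of 0.0523, 0.103 and 0.199. Of 18 cytosolic and mitochondrial chaperones Dnajb4 rose by 0.92 and Hspa8, the constitutive Hsp70, fell by 0.85 (SE 0.12, edgeR adjusted p = 0.00656). Hspa8 measured 3280, 2757 and 2989 CPM in controls and 1977, 1409 and 1655 CPM in Gem libraries, 2 groups well apart. The heat-inducible Hspa1a and Hspa1b, near-identical copies, did not pass. The chaperone list, with 1 call in each direction, is close to the shares over all genes tested, 6.07% higher and 2.78% lower.

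A pair of the largest increases belonged to none of the lists. Ifrd1 (ENSMUSG00000001627), a transcriptional co-regulator, measured 26.1, 71.5 and 41.6 CPM in controls and 127, 1249 and 589 CPM in Gem libraries, and rose by 3.43 (SE 0.42, edgeR adjusted p = 0.0172). Slc25a25, a mitochondrial carrier of ATP-magnesium and phosphate, rose by 2.98 (SE 0.43, edgeR adjusted p = 0.0206).

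Decreases were smaller than increases. The largest among well expressed genes was that of Slc39a10 (ENSMUSG00000025986), a zinc importer, which measured 223, 68.6 and 157 CPM in controls and 52.6, 28.6 and 32.6 CPM in Gem libraries. It fell by 1.87 on the log2 scale (SE 0.21, edgeR adjusted p = 0.00274), without overlap, and with control 2 nearest to the Gem libraries. In the zinc list, where 13 of 15 genes did not pass, the metallothionein Mt2 rose by 2.46 (SE 0.24, edgeR adjusted p = 0.0016), from 2.22, 14.4 and 3.95 CPM to 16.7, 52.8 and 25.0 CPM. The zinc exporter Slc30a1 was higher in each pair, by 0.56 to 2.89, with an adjusted p of 0.0529 in edgeR. Mt1 at 0.65 did not pass. The zinc list had 1 call in each direction, where 6.07% of all genes tested were called higher and 2.78% lower.

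Fam210b (ENSMUSG00000027495), a mitochondrial protein gene, was the most even over the pairs of the 12 largest decreases. It measured 62.1, 29.7 and 59.5 CPM in controls and 25.3, 13.1 and 24.8 CPM in Gem libraries, with pair ratios of -1.3, -1.18 and -1.26 (fitted -1.25, SE 0.14, edgeR adjusted p = 0.00329). Bmf (ENSMUSG00000040093) measured 128, 42.1 and 106 CPM in controls and 82.7, 12.8 and 45.1 CPM in Gem libraries, so its groups overlapped through control 2 and the fall shows only within pairs. The sodium channel gene Scn9a fell by 1.22 and Nrep by 1.14, with the same overlap at control 2. Slc16a3, the lactate exporter MCT4, fell by 1.17 (SE 0.22, edgeR adjusted p = 0.0252), at 336, 222 and 326 CPM in controls and 233, 66.6 and 138 CPM in Gem libraries, where Gem 1 lay just above control 2. Thsd7a, Alg9 (a mannosyltransferase of N-glycan synthesis), Sfxn3 (a mitochondrial serine transporter), Cdc42ep2 (an effector of the GTPase Cdc42), Ctxn1 and Ascc1 fell by 1.10 to 1.19.

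Several glycolytic enzymes fell by modest amounts. Of 19 glycolysis and hypoxia genes 6 fell and 0 rose, 14 were lower in all 3 pairs, and the median was -0.50 (-0.24, -0.57 and -0.59 by pair). Those called were Pfkl, Tpi1, Pgk1, Eno1, Gapdh and Ldha, all enzymes of the pathway from fructose 6-phosphate to lactate. Pfkl, the liver-type phosphofructokinase, measured 420.4, 317 and 403 CPM in controls and 306, 168 and 223 CPM in Gem libraries, and fell by 0.74 (SE 0.14, edgeR adjusted p = 0.0208). Tpi1 fell by 0.60 and Pgk1 by 0.51, and both were lower in every Gem library than in any control. Gapdh, often taken as a reference gene, fell by 0.50 (SE 0.12, edgeR adjusted p = 0.0397), from between 4231 and 5305 CPM to between 2844 and 3831 CPM. The hypoxia targets Bnip3 and Pdk1 stood at -1.04 and -1.17 and Ndrg1 at 1.19, with wide pairs, and did not pass. The test against a 1.2-fold change left 1 call. Without pair 3 the list had 0 calls, without pair 2 it had 1 in each direction, and without pair 1 it had 14 lower and 1 higher.

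Of 16 ribosomal protein genes tested 6 fell and 0 rose, 15 were lower in every pair, and the median was -0.37. Pair 1 was the largest here, at -0.60 against -0.31 and -0.26. Rps2 measured 1994, 2137 and 2179 CPM in controls and 1008, 1474 and 1530 CPM in Gem libraries and fell by 0.68 (SE 0.14, edgeR adjusted p = 0.0264), and Rps14 fell by 0.65. The share of all counts on 80 ribosomal protein genes moved with this, at 4.13%, 3.86% and 4.65% in controls and 2.68%, 2.80% and 3.74% in Gem libraries. Ribosomal protein genes have many processed copies in the genome, and which reads those took is not known here. Of 16 respiratory chain genes 0 passed in edgeR, 5 had an unadjusted p under 0.05, and DESeq2 with the block called 1, lower. The smallest p was that of Cox7b, a subunit of cytochrome c oxidase, at -0.51 (edgeR adjusted p = 0.0616).

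**Figure D5:**
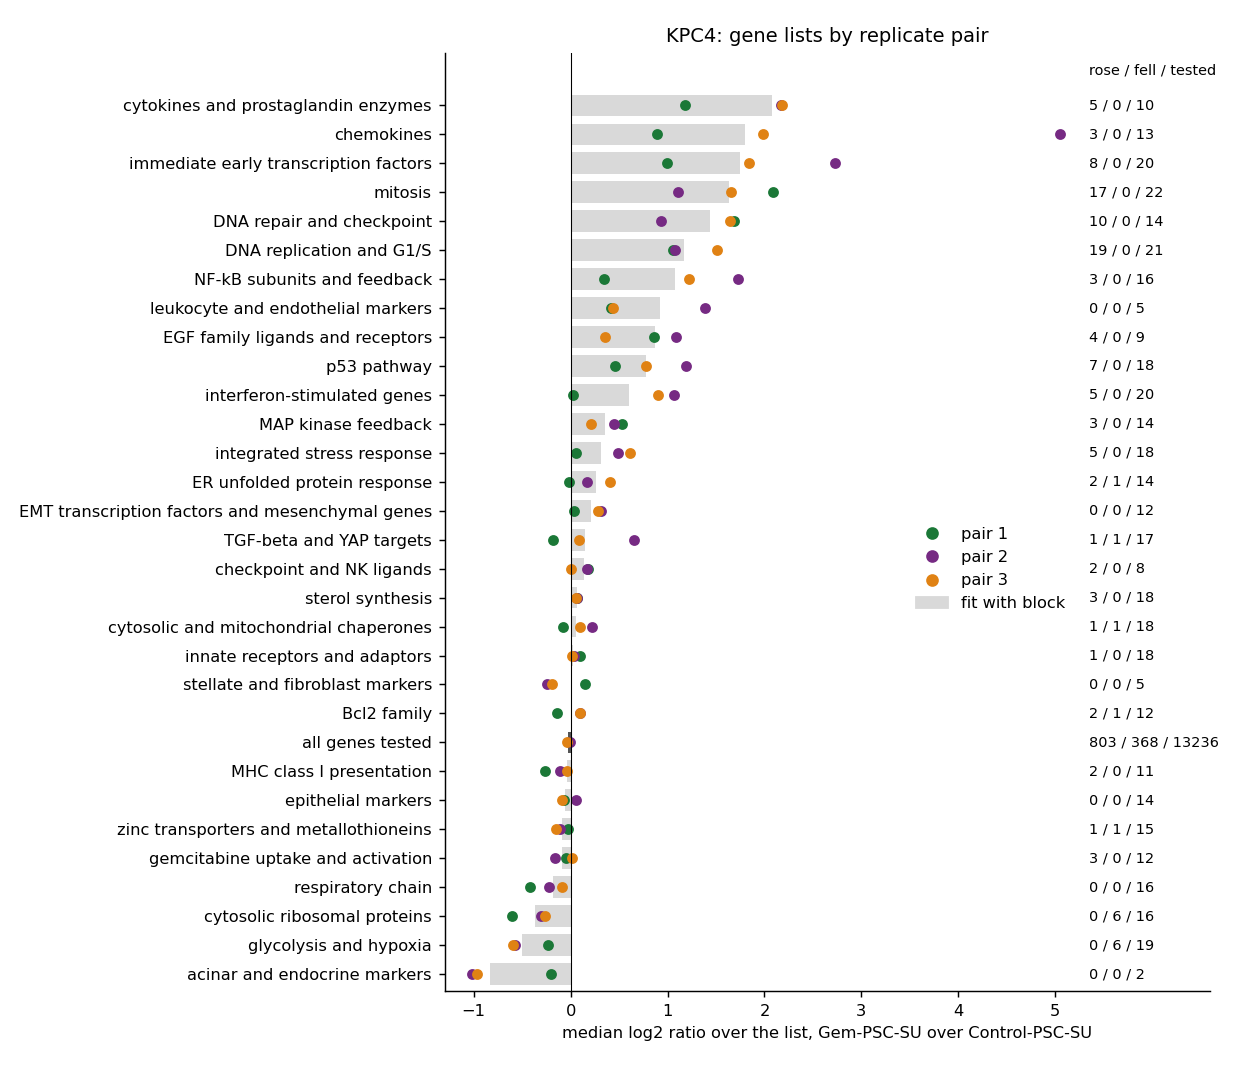
Median log2 ratio of Gem-PSC-SU over Control-PSC-SU over the tested genes of each list, with a grey bar for the fit with the replicate block and a dot for each pair, and the numbers of genes that rose, fell and were tested at the right. Chemokines, early factors and NF-kB genes have pair 1 lowest, mitosis and DNA repair have pair 2 lowest, and all genes tested lie at -0.03.

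Of 18 sterol synthesis genes 3 rose and 0 fell. Idi1 rose by 0.54 and Hmgcs1, which makes the precursor of mevalonate, by 0.51. Control 2 and Gem 2 were the highest library of their groups for both, and control 2 lay above Gem 1 and Gem 3, so that these rises show only within pairs. Of 17 targets of TGF-beta and YAP signalling, Smad7, an inhibitor that the pathway induces, rose by 0.84 (SE 0.15, edgeR adjusted p = 0.0183) and Pmepa1, another such target, fell by 0.69 (SE 0.14, edgeR adjusted p = 0.0286). The YAP targets Ccn1, Ccn2 and Ankrd1 did not pass. With 1 call in each direction, these targets are close to the 6.07% higher and 2.78% lower over all genes tested. Of 12 mesenchymal genes and EMT transcription factors 0 passed in edgeR or in DESeq2, and 5 had an unadjusted p under 0.05 in edgeR, with Vim nearest at -0.34 (edgeR adjusted p = 0.0963).

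Of 14 epithelial markers 0 passed in edgeR, 0 in DESeq2 and 0 under any of the 20 alternatives, 2 had an unadjusted p under 0.05, and the median was -0.05. Cldn7, a tight junction gene, was nearest, at -0.62 (edgeR adjusted p = 0.103), and the keratins Krt8, Krt18 and Krt19 lay between -0.13 and -0.01. Of the stellate markers 5 passed the low-count filter and 0 were called by edgeR or DESeq2, with 0 at an unadjusted p under 0.05. Col1a1, a collagen chain, measured 7.98 CPM ± 2.70 in controls and 5.86 CPM ± 1.91 in Gem libraries (SD, n = 3 each). Col6a3, another collagen chain, measured 1.85 CPM ± 0.54 in controls and 2.5 CPM ± 1.03 in Gem libraries (SD, n = 3 each). It stood at 0.42 in the edgeR fit. The authors' deposited table instead gives Col6a3 a log2 fold change of 1.54 with an adjusted p of 0.0251. The leukocyte and endothelial markers summed to between 64.5 and 79.3 CPM in controls and between 33.1 and 56.9 CPM in Gem libraries, nearly all of it Cd14, which stood at -0.72. Cd14 was not called with all pairs in edgeR (adjusted p = 0.0751), but passed in DESeq2 with the block (adjusted p = 0.0156) and in edgeR without pair 1 (adjusted p = 0.00979). The median of the 5 markers tested was 0.92 with 0 called in edgeR, and Pecam1 and Cdh5, endothelial adhesion genes, averaged 0.632 and 0.321 CPM in controls and 1.49 and 0.732 CPM in Gem libraries. Ptprc, the pan-leukocyte marker, stayed under 1 CPM in every KPC4 library. Their part in the response was not tested. The stellate sums overlapped between the groups, and the defining stellate genes Col1a2, Acta2 and Fap averaged under 1 CPM in both.

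The response was then set against that of PSC4 to Gem-SU, in one fit of all 12 libraries with a block for each line. KPC4 and PSC4 changed by different amounts for 2988 of the 13632 genes in that fit (21.9%; interaction in edgeR, adjusted p under 0.05), with the KPC4 change the higher one for 1631. Cxcl10 rose by 5.75 in KPC4 and stood at 1.17 in PSC4, where it already measured 232 CPM ± 52.5 (SD, n = 3) without the drug-exposed medium, a difference of 4.58 (SE 0.36, edgeR adjusted p = 7.71e-05). Dusp1 changed more in KPC4 by 2.27, whereas Atf3 and Ptgs2 changed less, by -1.69 and -1.08. Fam210b fell in KPC4 and stood at 0.05 in PSC4. Bmf went from 44.6 CPM ± 11.4 to 1.41 CPM ± 1.31 (SD, n = 3 each) in PSC4, a larger fall than in KPC4 by 4.03. For Slc39a10 the lines stood at -1.87 and -1.68 and for Thsd7a at -1.18 and -1.03, and neither difference passed (edgeR adjusted p = 0.635 and 0.682). Csf2 had no count in the PSC4 controls, so no fold is compared. Each line received its own medium, so line and step of the transfer cannot be told apart.

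In the authors' deposited table of this comparison all 24 of the largest increases and decreases were present with the same sign, and an adjusted p under 0.05 in the authors' deposited table was given to 12 of the 12 increases but 3 of the 12 decreases, Slc39a10, Fam210b and Cdc42ep2.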

How the data were processed

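RNA of 6 KPC4 cultures was sequenced, with libraries made and run on a NovaSeq X Plus by an outside company, per the labels' protocols. The submitters' processing notes name FastQC, Trim Galore 0.6.10, cutadapt 5.2, Salmon, R 4.5.1, DESeq2 and the build GRCm39, with no role for any. The authors deposited raw counts per gene identifier and library, which are whole numbers, and the smallest row total of the KPC4 table is 11. The authors also deposited a table of their own comparison, giving the log2 fold change and the raw and adjusted p-value of each gene, used only where it is named. How reads shared by similar, overlapping or antisense genes were assigned is not given in the sources used here. Samples were grouped by their titles.

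Counts were tested with edgeR 4.0.16 in R 4.3.3 (filterByExpr, TMM, robust quasi-likelihood fit, replicate number as block, Benjamini-Hochberg adjustment at 0.05), after a run on simulated data. CPM are scaled by TMM factors, except in the sums and averages of KPC4 cell type markers and the PSC4 marker sums, which use plain totals. Log2 ratios of pairs are of log CPM with a prior count of 2. Replicates differed by more than counting error, and genes with few reads are the least precise. The difference between the lines was an interaction over 12 libraries. Symbols came from GENCODE M21 (15265 of 15309 identifiers, 99.7%), and promoter windows from RefSeq on GRCm38.p6 matched for 9 of 9 genes looked up.

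The comparison, its block, the 30 gene lists and the tests were chosen with earlier results of these data known. Deviations from the group means correlated at 0.35, 0.44 and 0.21 between libraries of the same number, and every library correlated best with its own number. This comes from the values and not from a label, and with 3 libraries per group it cannot establish what equal numbers share. Named genes were the 12 largest increases and decreases among well expressed called genes with 1 direction in all pairs, up to 3 called genes per list with the smallest p, and the 3 called genes that varied most over pairs. Further genes were named after their values were seen, and a few that the rule names are not reported here. Alternatives were no block, DESeq2 1.42.0 and its size factors, limma 3.58.1 (voom), other filters, fits and tests, and leaving out pairs or libraries.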

Additional observations from a re-analysis of the deposited data

Results flagged for a closer look

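These genes are listed because a test of the difference itself, the interaction over all 12 libraries in edgeR with a block for each line, separated the KPC4 response to Gem-PSC-SU from the PSC4 response to Gem-SU. The difference, KPC4 minus PSC4 on the log2 scale, was 4.58 for Cxcl10 (adjusted p = 7.71e-05), 4.03 for Bmf (adjusted p = 0.00123) and 2.27 for Dusp1 (adjusted p = 0.00274). It was -1.69 for Atf3 (adjusted p = 0.0153), -1.3 for Fam210b (adjusted p = 0.00243) and -1.08 for Ptgs2 (adjusted p = 0.0349). Bmf stood at -1.18 in KPC4 and at -5.22 in PSC4 in this fit, with PSC4 Gem libraries at 1.41 CPM ± 1.31 (SD, n = 3). Atf3 reached similar levels in both, 983 CPM ± 713 in KPC4 and 1021 CPM ± 151 in PSC4 (SD, n = 3 each, scaled in separate fits), from 9.80 CPM ± 5.07 and 3.79 CPM ± 1.03.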

How the results depend on the processing

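The main fit called 1171 genes, of which 542 changed at least 2-fold, 884 were well expressed and 120 were list genes. Each of these numbers went to 0 without the replicate block. The 1171 genes kept their direction, which was nearly fixed in advance because each had the same direction in all 3 pairs. DESeq2 with the block called 2133 genes, 1582 of them well expressed, and without it 533 well expressed genes. The test against a 1.2-fold change called 555 and 415, and one fit over all 12 libraries called 1820. Leaving out a pair with the block, or a library without it, gave from 0 to 3051 genes called, 0 to 1101 at least 2-fold, 0 to 2288 well expressed and 0 to 210 list genes. With the block 3051 genes passed without pair 1, and without pair 3 45, of which 42 were well expressed and 15 list genes. With no block 1129 were called without Gem 1, 174 without control 2 (149 well expressed, 48 list genes), 1 without Gem 2 and 0 without each of the others. With 2 pairs or with an arm of 2 libraries the spread is estimated from few samples and shared across genes, and the cause of these shifts was not tested. The share of genes with 1 direction in all pairs, 53.04%, stayed within 52.8% and 57.1%. The difference between the lines, 2988 genes, was 1343 without the replicate block, and from 1615 (without KPC4 pair 3) to 3003 when a pair was left out, with 1900 without PSC4 pair 3. Of the named genes 0 reversed under the 20 alternatives, which the same direction of called genes in all 3 pairs made likely in advance. Without pair 3, 64 of the 79 called among the 102 lost their call and 15 kept it. Low genes such as Csf2, Cxcl2 and Tnf rest on few control reads.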
